A study of Mus musculus with 5 samples.

Results

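Cxcl12, Cxcr4 and Ackr3 encode a secreted chemokine and its receptors. All probes that the platform annotation assigns to these 3 genes were taken, 7 of the 45281 probes and 3 of the 19057 named genes on the array, in all 5 tumours of the study. Cxcr4 had 1 probe, Ackr3 (older symbol Cxcr7) had 1 probe and Cxcl12 had 5 probes. They belong to an Illumina bead array data set of end-stage mouse medulloblastomas, with 2 MyoD +/-;SmoA2 tumours and 3 MyoD +/+;SmoA2 tumours, 1 array each. SmoA2 is an activated form of Smoothened, the signal-transducing component of the hedgehog receptor, and tumours of both genotypes carried it. The MyoD +/- tumours had a single intact copy of the myogenic transcription factor gene Myod1 and the MyoD +/+ tumours had both. The promoter that drives SmoA2, the kind of Myod1 mutation, and the age of the mice are not given in the sources used here. The series text gives the purpose of the genotype comparison as the role of the muscle differentiation programme in tumours that lose MyoD.

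CXCL12 is made by the meninges over the developing cerebellum and attracts granule neuron precursors through CXCR4, a receptor coupled to inhibitory G proteins. This attraction keeps the precursors in the external granular layer, where they divide in response to Sonic hedgehog and from which hedgehog-driven medulloblastoma can arise. ACKR3 also binds CXCL12, but recruits arrestins instead of signalling through G proteins and removes the chemokine from the surroundings of the cell.

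The share of probes detected (detection p-value under 0.05) was 37.0% to 39.9% per array. Levels are background-corrected, quantile-normalized log2 signals. Of the genes that mark granule neuron precursors, 13 of the 19 with a probe passed the detection filter (detected on at least 2 arrays), among them the transcription factor gene Zic1, at 11.98 and 12.18 in the MyoD +/- tumours, against 12.03, 11.95 and 12.17 in the MyoD +/+ tumours. Atoh1, Gli1 and Mycn, each with 1 probe, were detected on 0 arrays, which is no evidence that they are absent. Myod1 stood at 6.31 and 6.67 in the MyoD +/- tumours and at 7.25, 6.38 and 7.08 in the MyoD +/+ tumours, with overlapping groups (difference -0.41 ± 0.28, SE; limma adjusted p = 0.957). The sources used here do not place this probe against the mutation, and the genotype labels were not checked by it. MyoD +/- tumour 1 and MyoD +/+ tumour 1 had signal of Xist, the transcript that silences an X chromosome, and the other 3 tumours did not.

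The ligand Cxcl12 was read by 3 probes that were detected on all 5 arrays, and their genotype differences were unequal. The brightest of them (ILMN_2658908) was annotated to transcript NM_013655, which encodes isoform beta. It stood at 7.79 and 7.999 in the MyoD +/- tumours and at 8.28, 8.47 and 8.21 in the MyoD +/+ tumours. Both MyoD +/- tumours lay below all 3 MyoD +/+ tumours. The means were 7.89 ± 0.15 and 8.32 ± 0.14 (SD, n = 2 and 3), a difference of -0.43 ± 0.18 (SE) or 0.743-fold. It did not pass the test across genes (limma adjusted p = 0.942; unadjusted p = 0.0440), with a 95% interval from -0.84 to -0.02. In whole tumours, fewer cells of a type and less RNA per cell cannot be told apart.

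That probe represents Cxcl12 in the test across genes, because it has the highest mean level of the gene's probes. Of the 10474 genes tested, 0 passed an adjusted p of 0.05 in limma (0% called), and 551 (5.26%) had an unadjusted p under 0.05. Groups without overlap were found in 20.9% of the genes, and in 10.9% the MyoD +/- tumours were the lower ones. Cxcl12 is therefore 1 of 1139 genes with this order of tumours.

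The order of the tumours on this probe depended on the normalization between arrays. The deposited signals before normalization were 353.8 and 397.3 in the MyoD +/- tumours, against 442.6, 381 and 438.3 in the MyoD +/+ tumours, on the linear scale. On that scale the groups overlapped, since MyoD +/+ tumour 2 lay between the MyoD +/- tumours. The array of MyoD +/+ tumour 2 was the dimmest, with a median probe signal of 133.6, against 145.3 and 146.5 on the MyoD +/- arrays and 145.2 and 148.1 on the other MyoD +/+ arrays. With the authors' processed values the groups did not overlap and the difference was -0.30.

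The other detected Cxcl12 probes gave differences near 0. The probe ILMN_2737302, annotated to transcript NM_021704 (isoform alpha), stood at 7.20 and 7.54 in the MyoD +/- tumours and at 7.09, 7.77 and 7.07 in the MyoD +/+ tumours. Its difference was 0.06 ± 0.26 (SE; limma adjusted p = 0.992 over all probes), and the MyoD +/- tumours lay within the range of the MyoD +/+ tumours. The probe ILMN_3158250, annotated to transcript NM_001012477 (isoform gamma), stood at 7.12 and 7.64 in the MyoD +/- tumours and at 7.30, 7.59 and 6.96 in the MyoD +/+ tumours. Its difference was 0.10 ± 0.25 (SE; limma adjusted p = 0.987 over all probes), again with overlapping groups. Over the 18675 probes tested, 0 passed an adjusted p of 0.05 (0% called), and the groups did not overlap in 20.7%. With the mean of the detected probes in place of the brightest, the Cxcl12 difference was -0.09 ± 0.22 (SE; limma adjusted p = 0.993).

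Because the probes share the same RNA on each array, the gap between them can be followed from tumour to tumour. The isoform beta probe exceeded the isoform alpha probe by 0.59 and 0.46 in the MyoD +/- tumours and by 1.19, 0.70 and 1.15 in the MyoD +/+ tumours (log2). It exceeded the isoform gamma probe by 0.66 and 0.36 in the MyoD +/- tumours and by 0.98, 0.88 and 1.25 in the MyoD +/+ tumours. The size of a gap has no meaning of its own, because probes differ in brightness, but its change between tumours can be read. In both cases the gap was smaller in each MyoD +/- tumour than in any MyoD +/+ tumour, by 0.48 and 0.53 on average. These gaps were chosen after the levels were seen and restate the unequal probe differences. An exact permutation of the tumours gave p = 0.2 for each gap. With 10 splits that is the smallest p it can give, so it cannot decide whether the gaps differ. The sources used here do not place the probes within the transcripts, so a probe annotated to a transcript may also read the other transcripts of Cxcl12.

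The remaining Cxcl12 probes were detected on 0 of the 5 arrays. ILMN_2746295, a second probe for the isoform alpha transcript, stood at 4.59 and 4.82 in the MyoD +/- tumours and at 4.48, 4.57 and 4.68 in the MyoD +/+ tumours. ILMN_3078973, a second probe for the isoform gamma transcript, stood at 4.83 and 4.62 in the MyoD +/- tumours and at 4.51, 4.64 and 4.64 in the MyoD +/+ tumours. Probes annotated to the same transcript therefore differed in whether they were detected at all.

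**Figure D1:**
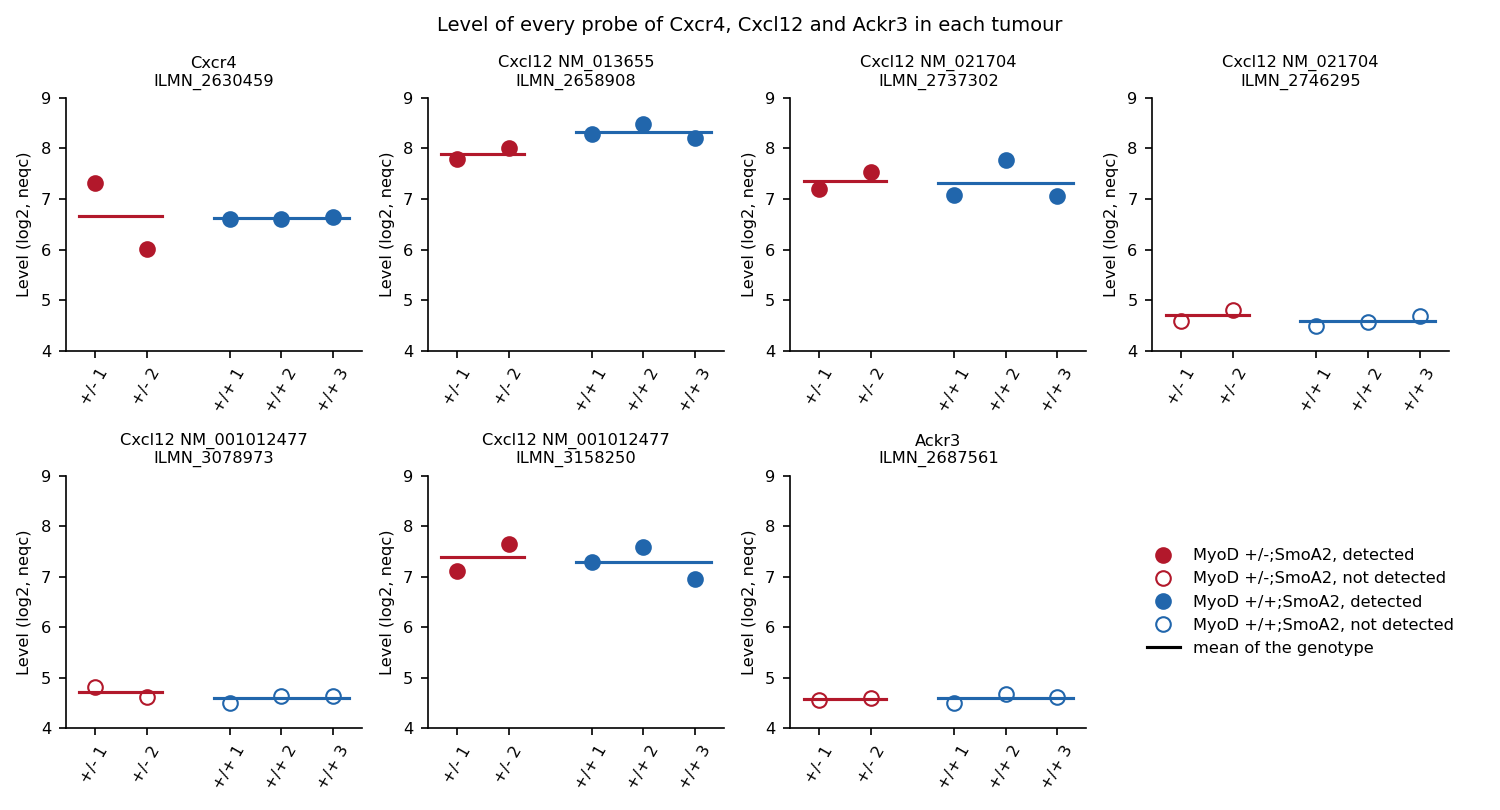
Level of each of the 7 probes (log2, vertical axis) in the 2 MyoD +/-;SmoA2 tumours (red, left) and the 3 MyoD +/+;SmoA2 tumours (blue, right), with filled points where the probe was detected and a line at the mean of each genotype. Cxcr4 spreads from 6.01 to 7.33 in the MyoD +/- tumours and lies between 6.60 and 6.64 in the MyoD +/+ tumours, the probe ILMN_2658908 of Cxcl12 is lower in both MyoD +/- tumours, and the Ackr3 probe is not detected in any tumour.

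The receptor Cxcr4 was detected in all 5 tumours on its single probe (ILMN_2630459). It stood at 7.33 and 6.01 in the MyoD +/- tumours and at 6.60, 6.60 and 6.64 in the MyoD +/+ tumours. MyoD +/- tumour 1 was above and MyoD +/- tumour 2 below all MyoD +/+ tumours, which differed from each other by at most 0.05. The means were 6.67 ± 0.93 and 6.62 ± 0.02 (SD, n = 2 and 3), and the difference of 0.05 ± 0.35 (SE) did not pass (limma adjusted p = 0.996). Its 95% interval ran from -0.78 to 0.88, or from 0.582-fold to 1.84-fold.

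The mean of the MyoD +/- tumours hides 2 opposite deviations. Without MyoD +/- tumour 1 the Cxcr4 difference was -0.61, and without MyoD +/- tumour 2 it was 0.71 (limma adjusted p = 0.999 and 0.977). Between the tumours with Xist signal, MyoD +/- tumour 1 exceeded MyoD +/+ tumour 1 by 0.72. Among those without, MyoD +/- tumour 2 stood at -0.59 and -0.64 relative to MyoD +/+ tumours 2 and 3. With Xist signal as a block the Cxcr4 difference was -0.04, of opposite sign to the value without it. Each such pair holds 1 MyoD +/- tumour, so Xist status and tumour cannot be told apart within that genotype.

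The gap between the MyoD +/- tumours was 1.32 on the log2 scale, or 2.50-fold, and only 0.621% of tested genes (65) had a gap between these 2 tumours at least as large. The range of 0.05 among the MyoD +/+ tumours was also narrow, since 1.16% of tested genes had a range that small or smaller. In 4.32% of tested genes (452), MyoD +/- tumour 1 lay above and MyoD +/- tumour 2 below every MyoD +/+ tumour. The gap was smaller on the authors' processed values, at 0.61, where the levels were 8.13 and 7.52 in the MyoD +/- tumours, against 7.76, 7.76 and 7.78 in the MyoD +/+ tumours. The deposited signals were 288.3 and 189.8 in the MyoD +/- tumours, against 222.3, 187.1 and 229.4 in the MyoD +/+ tumours. On that linear scale MyoD +/- tumour 2 no longer lay below all MyoD +/+ tumours, since the dim array of MyoD +/+ tumour 2 gave a slightly lower signal.

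Cxcr4 is expressed by granule neuron precursors and also by microglia, lymphocytes and endothelial cells. The 13 tested precursor genes had median levels of 10.18 and 9.81 in MyoD +/- tumours 1 and 2, against 10.44, 10.23 and 9.71 in the MyoD +/+ tumours. By genotype, 8 of them were higher in the MyoD +/- tumours and 5 lower (median difference 0.05), and 0 passed. One of the 5, Meis2, was detected in 0 MyoD +/- tumours and 2 MyoD +/+ tumours. It passed the filter only through the group in which it was higher. Among the 13, the hedgehog receptor gene Ptch1 stood at 9.98 and 9.27 in the MyoD +/- tumours and at 9.85, 9.81 and 9.62 in the MyoD +/+ tumours. Like Cxcr4, Ptch1 was highest in MyoD +/- tumour 1 and lowest in MyoD +/- tumour 2, while the order of the MyoD +/+ tumours differed. Gli2 had the same extremes, which were found in 4.32% of all tested genes. The neuronal transcription factor gene Neurod1 ran the other way in the MyoD +/- tumours, at 6.48 and 7.46, against 6.73, 6.53 and 6.43 in the MyoD +/+ tumours. Median levels of 13 microglia and macrophage genes were 8.09 and 8.13 in the MyoD +/- tumours, against 7.92, 8.04 and 7.46 in the MyoD +/+ tumours, with 9 genes higher and 4 lower (median difference 0.20) and 0 passing. That of 18 endothelial and mural genes was 6.09 and 5.97 in the MyoD +/- tumours, against 6.17, 6.09 and 6.54 in the MyoD +/+ tumours. Of the lymphocyte genes, 8 of the 10 with a probe were detected on 0 arrays, the T cell genes Cd3e, Cd4 and Cd8a among them. The other 2, Thy1 (-1.05 ± 0.25, SE) and Cd8b1 (-0.21 ± 0.16), were detected in every tumour. Both were lower in the MyoD +/- tumours without overlap, against 20.9% of all genes without overlap in either direction, and 0 passed. Summed linear levels of the microglial genes were 6694 and 5878 in the MyoD +/- tumours, against 4508 to 6029 in the MyoD +/+ tumours. Those of the precursor genes were 28061 and 24902 in the MyoD +/- tumours, against 22395 to 26362 in the MyoD +/+ tumours. Both sums were highest in MyoD +/- tumour 1, as for Cxcr4. Unlike Cxcr4, both lay within the MyoD +/+ range in MyoD +/- tumour 2. Such linear sums are set mostly by the brightest genes of a list. By median level, the precursor genes were highest in MyoD +/+ tumour 1 and the microglial genes in MyoD +/- tumour 2. The endothelial and mural sum was highest in MyoD +/+ tumour 3. The part of these cells in the Cxcr4 values was not tested.

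**Figure D2:**
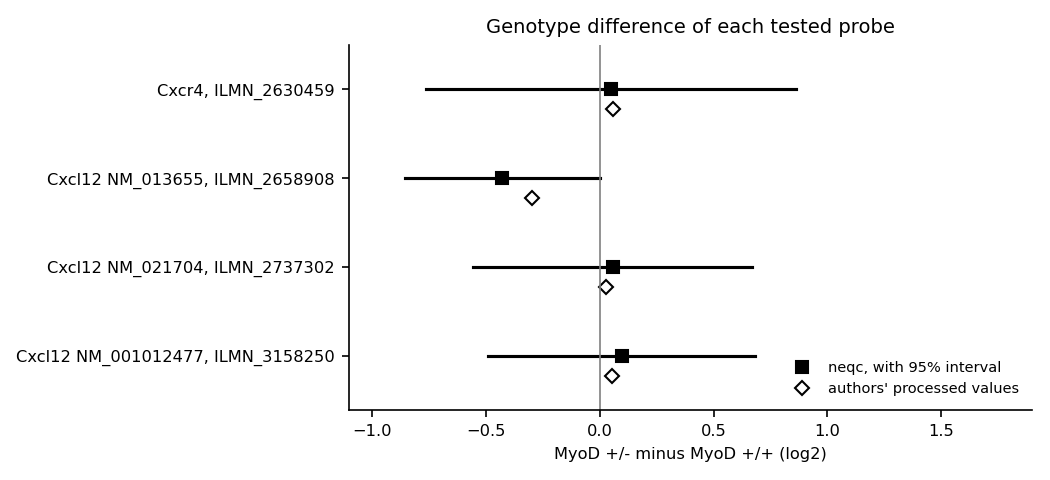
Genotype difference (MyoD +/- minus MyoD +/+, log2, horizontal axis) of the 4 member probes that passed the detection filter, with squares and 95% intervals from limma over all probes and diamonds for the authors' processed values. The Cxcl12 probe ILMN_2658908 is at -0.43, while Cxcr4 and the other Cxcl12 probes lie between 0.05 and 0.10. The interval of ILMN_2658908 ends just below 0, at -0.0006, and those of the other probes include 0.

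The scavenging receptor Ackr3 was detected on 0 of the 5 arrays and did not enter the test across genes. Without the detection filter its difference was -0.025 ± 0.113 (SE; limma adjusted p = 0.993 over 19057 genes), a difference between undetected levels. Its probe (ILMN_2687561) had signals of 133.1 and 135.8 in the MyoD +/- tumours, against 128.9, 128.4 and 138.8 in the MyoD +/+ tumours, close to the median probe of each array. Its levels of 4.56 and 4.59 in the MyoD +/- tumours, against 4.50, 4.68 and 4.63 in the MyoD +/+ tumours lay below the lowest detected level of each array, which was between 5.17 and 5.34. This is no evidence that Ackr3 is absent. Broadly expressed genes such as Hmgb1, Rhoa and Akt1, each with 1 probe, were likewise detected on 0 arrays.

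Genes with tumour-to-tumour profiles closest to Cxcr4 were sought by the root mean square difference of levels over the 5 tumours, each centred on its own mean. The closest were Hrob, a homologous recombination factor (0.103), the synaptogyrin gene Syngr2 (0.126) and Akna, an AT-hook transcription factor gene (0.128). The profile of Cxcr4 itself had an SD of 0.47. Hrob stood at 6.17 and 4.91 in the MyoD +/- tumours and at 5.30, 5.25 and 5.31 in the MyoD +/+ tumours, and was detected on 3 of the 5 arrays. Syngr2 was detected on 4 arrays and Akna on all 5. Each of these genes was highest in MyoD +/- tumour 1 and lowest in MyoD +/- tumour 2.

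For Cxcl12 the closest profiles belonged to Mtss2, a membrane-bending protein gene (0.0362), the pyridoxal phosphatase gene Pdxp (0.0448) and the actin-bundling protein gene Espn (0.0456). Pdxp stood at 10.31 and 10.45 in the MyoD +/- tumours and at 10.72, 10.99 and 10.77 in the MyoD +/+ tumours. Like the Cxcl12 probe, each was highest in MyoD +/+ tumour 2 and lowest in MyoD +/- tumour 1. Mtss2 and Pdxp were detected on all 5 arrays and Espn on 2, with both MyoD +/- levels of Espn in the undetected range. These are the nearest of 10474 genes over 5 points, and such closeness is a description with no test.

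**Figure D3:**
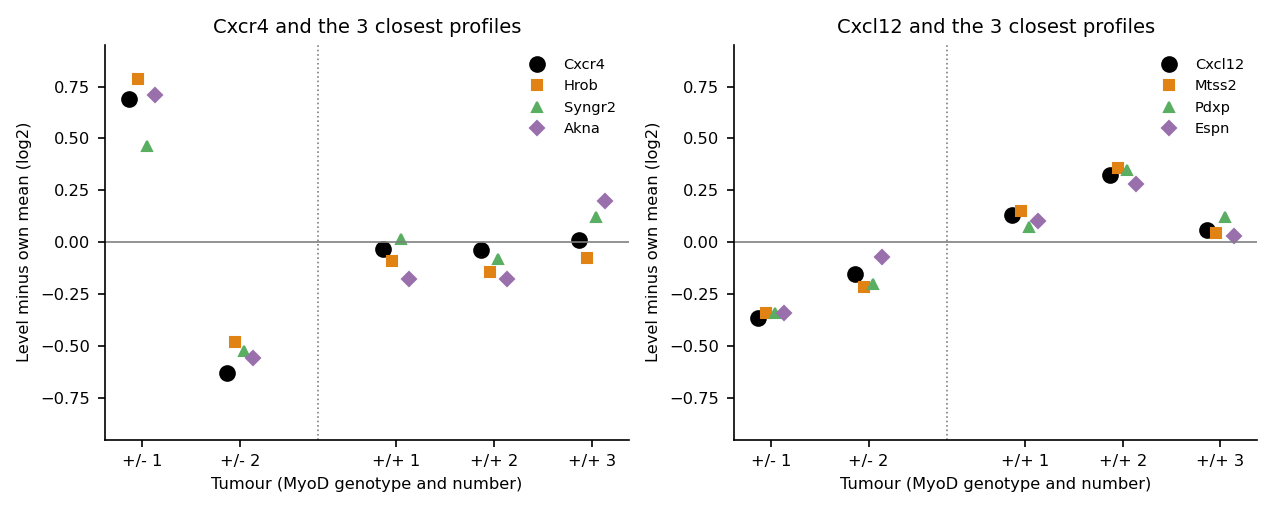
Level of Cxcr4 (left) and Cxcl12 (right) and of the 3 genes with the closest profiles, each minus its own mean over the 5 tumours (log2, vertical axis), in MyoD +/- tumours 1 and 2 and MyoD +/+ tumours 1 to 3. The Cxcr4 group is highest in MyoD +/- tumour 1 and lowest in MyoD +/- tumour 2, and the Cxcl12 group is lower in both MyoD +/- tumours than in any MyoD +/+ tumour.

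Cxcl12 in the brain comes from meninges, vessels, astrocytes and some neurons, and genes that mark these sources were set beside it. Of 8 meningeal and fibroblast genes tested, 3 were higher in the MyoD +/- tumours and 5 were lower. Their median difference was -0.06, and 0 passed the test. The meningeal genes Ptgds (-0.46 ± 0.18, SE), Aldh1a2 (-0.49 ± 0.22) and Slc6a13 (-0.30 ± 0.16) had the same order as Cxcl12, with both MyoD +/- tumours below all MyoD +/+ tumours, an order found in 10.9% of all genes, and none passed. The higher ones were Lum (0.37 ± 0.26), Pdgfra (0.17 ± 0.26) and Igfbp2 (0.14 ± 0.19), with overlapping groups. The 8 genes had summed linear levels of 2831 and 2425 in the MyoD +/- tumours, against 2598 to 2785 in the MyoD +/+ tumours, so the groups overlapped. Foxc1, Col1a1 and Col3a1 fell below the detection filter.

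Of 18 endothelial and mural genes, 5 were higher and 13 lower (median -0.08), with summed levels of 2991 and 2940 in the MyoD +/- tumours, against 2682 to 3411 in the MyoD +/+ tumours. The proteoglycan gene Cspg4 differed by -0.57 ± 0.23 (SE). It was the only 1 of the 18 with groups that did not overlap, against 20.9% of all genes. Of 13 astrocyte and Bergmann glia genes, 3 were higher and 10 lower (median -0.09), with summed levels of 18534 and 21108 in the MyoD +/- tumours, against 17785 to 23096 in the MyoD +/+ tumours. The gap junction gene Gja1 (-0.57 ± 0.23) and the neurotensin receptor gene Ntsr2 (-0.77 ± 0.24) had non-overlapping groups, lower in the MyoD +/- tumours. The glutamate transporter gene Slc1a2 was at 0.52 ± 0.23, also without overlap. Groups did not overlap in 4 of the 13, against 20.9% of all genes. Of 11 genes of oligodendrocytes, the cells that form myelin, 10 were lower and 1 higher, with a median of -0.71. Groups did not overlap in 9 of the 11, all lower in the MyoD +/- tumours, against 20.9% of all genes in either direction. Mbp (-1.29 ± 0.19, SE), Mobp (-1.45 ± 0.32) and Mog (-1.05 ± 0.23) had the smallest unadjusted p of the list. One of the 9, Opalin, was detected in 0 MyoD +/- tumours and 2 MyoD +/+ tumours, so it passed the filter only through the group in which it was higher. Their summed levels were 5773 and 5442 in the MyoD +/- tumours, against 7586 to 10570.5 in the MyoD +/+ tumours. Over all genes tested the median was 0.00, with 5194 higher and 5280 lower. In each of these lists 0 genes passed over all genes tested. The part of these cells in the Cxcl12 values was not tested.

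Other ligands of the receptors had genotype differences near 0 where they were measured. Mif, a cytokine that also binds CXCR4, stood at 13.60 and 13.30 in the MyoD +/- tumours and at 13.51, 13.29 and 13.46 in the MyoD +/+ tumours (0.03 ± 0.18, SE). Cxcl14, a chemokine reported to act on CXCR4, differed by -0.06 ± 0.29. Cxcl11, the other chemokine ligand of ACKR3, was detected on 0 arrays, as were Adm and Hmgb1.

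Genes that cut, bind or present CXCL12 were mixed. Of 7 tested, 3 were higher in the MyoD +/- tumours and 4 were lower (median -0.11), and 0 passed in either direction. The membrane protease gene Mmp14 stood at 10.49 and 9.47 in the MyoD +/- tumours and at 9.76, 9.39 and 9.06 in the MyoD +/+ tumours (0.58 ± 0.33, SE). The gelatinase gene Mmp9 differed by -0.62 ± 0.29, and the heparan sulphate proteoglycan genes Hspg2 and Sdc4 by -0.18 ± 0.20 and -0.11 ± 0.20. The MIF receptor and MHC class II chaperone gene Cd74 stood at 8.01 and 8.52 in the MyoD +/- tumours and at 7.72, 8.04 and 7.46 in the MyoD +/+ tumours (0.53 ± 0.24). Dpp4, the peptidase that inactivates CXCL12, was detected on 0 arrays.

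Of 12 tested genes for G proteins and receptor desensitisation, 5 were higher and 7 lower (median -0.12), and 0 passed. The receptor kinase gene Grk6, whose product phosphorylates CXCR4, stood at 7.02 and 6.73 in the MyoD +/- tumours and at 6.69, 6.50 and 6.51 in the MyoD +/+ tumours (0.31 ± 0.18, SE), with groups that did not overlap. The G protein subunit genes Gnai2 and Gnb2 differed by -0.29 ± 0.19 and -0.33 ± 0.21, with non-overlapping groups for Gnb2, lower in the MyoD +/- tumours. Grk6 and Gnb2 were the 2 of 12 without overlap, against 20.9% of all genes. Rgs16, which shortens G protein signals, differed by -0.51 ± 0.27. The arrestin genes Arrb1 and Arrb2 differed by -0.13 ± 0.17 and 0.01 ± 0.18.

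Of 17 tested effectors of migration, 7 were higher and 10 lower (median -0.01), from -0.34 to 0.13, and 0 passed. Rac1, a GTPase of the leading edge of migrating cells, stood at 8.92 and 8.93 in the MyoD +/- tumours and at 9.16, 9.49 and 9.13 in the MyoD +/+ tumours (-0.34 ± 0.18, SE; limma adjusted p = 0.945). It was the only 1 of the 17 with non-overlapping groups, which 20.9% of all genes had. Its relative Cdc42 differed by 0.04 ± 0.18 and the adaptor gene Crk by -0.15 ± 0.17.

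**Figure D4:**
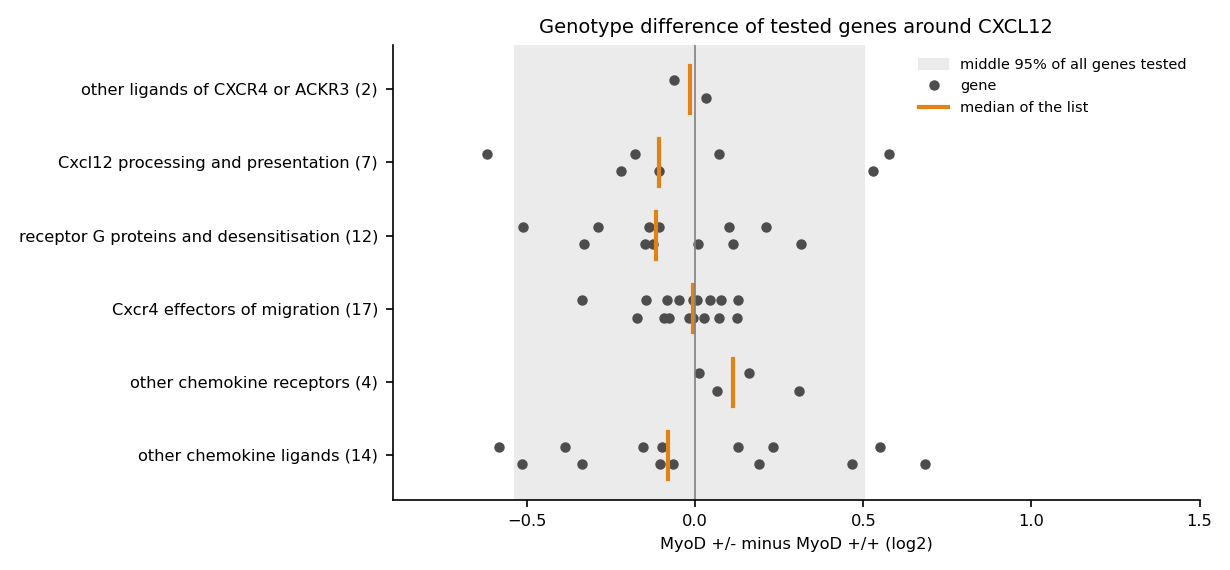
Genotype difference (MyoD +/- minus MyoD +/+, log2, horizontal axis) of each tested gene in 6 lists around CXCL12, with the number tested in brackets, the list median as a bar and the middle 95% of all tested genes shaded. List medians lie between -0.12 and 0.11, and the effectors of migration span -0.34 to 0.13.

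Few other chemokine receptors were measured above background. Of 20 with a probe, 4 passed the detection filter, 15 were detected on 0 arrays and 1 on a single array. The fractalkine receptor gene Cx3cr1 of microglia stood at 8.09 and 7.84 in the MyoD +/- tumours and at 7.92, 7.67 and 7.38 in the MyoD +/+ tumours (0.31 ± 0.21, SE). All 4 were higher in the MyoD +/- tumours (median 0.11, from 0.01 to 0.31), with overlapping groups, and 0 passed. Over all genes tested, 5194 of 10474 were higher. Ccr6 and Ackr2 were each detected in only 1 tumour of each genotype.

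Of the other chemokine ligands, 14 of 32 with a probe were tested, 6 of them higher in the MyoD +/- tumours and 8 of them lower (median -0.08), and 0 passed. Cx3cl1, the neuronal ligand of that receptor, stood at 6.55 and 6.32 in the MyoD +/- tumours and at 7.07, 7.05 and 6.95 in the MyoD +/+ tumours. Its difference was -0.58 ± 0.17 (SE; limma adjusted p = 0.911), with groups that did not overlap. Groups did not overlap in 4 of the 14, against 20.9% of all genes. Of these, Cx3cl1 and Ccl11 were lower in the MyoD +/- tumours, and Ccl27a and Ccl3 were higher. Ccl3 was detected in 2 MyoD +/- tumours and 1 MyoD +/+ tumour, so it met the filter through the group in which it was higher. It stood at 5.97 and 5.44 in the MyoD +/- tumours and at 5.42, 5.16 and 5.13 in the MyoD +/+ tumours. Ccl27a, which has near-identical copies in the mouse genome, stood at 9.88 and 10.22 in the MyoD +/- tumours and at 9.49, 9.62 and 9.39 in the MyoD +/+ tumours (0.55 ± 0.18, SE; limma adjusted p = 0.911). The macrophage chemokine gene Ccl8 differed by 0.68 ± 0.31, with overlapping groups. One of the 8 lower ligands, Ccl7, was detected in 0 MyoD +/- tumours and 2 MyoD +/+ tumours. It passed the filter only through the group in which it was higher.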

How the data were processed

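Per the labels' protocols, tumour RNA was purified with Trizol and RNeasy columns, and biotin-labelled cRNA was made for Illumina arrays. The authors deposited non-normalized signal intensities for 45281 probes per array and, per the file headers, a detection p-value for each. The authors also deposited processed values, found here to be on a log2 scale: they rank probes as the signals do and differ from the log2 of quantile-normalized signals by at most 0.00360. The sources used here name no scanner or software. Groups follow the labelled genotype. Whether the 5 tumours came from separate mice is unstated, so p-values reflect only the spread among these samples, which may be technical, and 5 arrays limit the precision.

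Signals were normalized with neqc (offset 16) in limma 3.58.1 (R 4.3.3). Probes detected (p under 0.05) on at least 2 arrays were kept (18675 probes), and each gene was represented by its probe of highest mean level (10474 genes). Probes were named by the platform annotation (34885 with 1 symbol, 18 with several, 10378 unnamed), with symbols checked by Entrez identifier against RefSeq (GRCm38.p6; 34807 matched). Genotypes were compared with limma (two-sided, Benjamini-Hochberg over all genes or all probes, threshold 0.05) as MyoD +/- minus MyoD +/+. The fit was tested on simulated data. Named genes were the members with all their probes, Myod1, up to 3 genes of smallest p from each of the other lists, and the 3 closest profiles per member. Other list genes that the text names were chosen for their known role after their values were seen. The members and lists were chosen with earlier results of these data known. Alternatives were other normalizations and offsets, the authors' values, other filters and probe summaries, other variance models, blocks and leaving out each tumour.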

Additional observations from a re-analysis of the deposited data

How the results depend on the processing

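The Cxcl12 difference on its brightest probe (-0.43) was negative under every one of the alternatives run that use this probe and passed the test under none, from -0.45 to -0.28 over the other settings and from -0.53 to -0.32 with each tumour left out. Alternatives that changed only the filter or the variance model left this estimate as it was. With the mean of the detected probes instead the Cxcl12 difference was -0.09. With a tumour left out, the isoform alpha probe ranged from -0.11 to 0.29 and the isoform gamma probe from -0.16 to 0.35. The Cxcl12 difference was -0.28 with median scaling, which moves the median of all genes to 0.14, so that it was -0.42 relative to that median. The Cxcr4 difference (0.05) kept its sign under 14 of the 16, but these are not separate checks. Changes of only the filter, probe summary or variance model cannot move the estimate of a gene with a single probe. The authors' values repeated quantile normalization without background correction, and the title letters as a block repeated leaving out MyoD +/+ tumour 1. The Cxcr4 difference was -0.043 with Xist signal as a block. It ranged from -0.61 (without MyoD +/- tumour 1) to 0.71 (without MyoD +/- tumour 2). It was 0.16 with median scaling, or 0.02 relative to the median of all genes. The Ackr3 difference of undetected levels stayed between -0.08 and 0.01. The count of genes past the threshold was 0 as reported (smallest adjusted p 0.398 and 551 genes at an unadjusted p under 0.05 in limma) and in the other settings except 2 with robust estimation and a mean-variance trend, and 0 to 1 with a tumour left out (1 without MyoD +/+ tumour 2 and 1 without MyoD +/+ tumour 3). Over all probes it was 0 (972 at an unadjusted p under 0.05), and 0 to 1 with a tumour left out (1 without the same tumours, each in turn). The cause of these changes was not tested. The sample titles carry letters whose meaning is not given. The letters V and P each occur on 1 tumour of either genotype, and those of MyoD +/+ tumour 1 on no other. Whether they mark pairs is not known. With them as a block the differences were 0.04 (Cxcr4) and -0.45 (Cxcl12). Probes near background have compressed differences, because the offset is added to them.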
